A study of Homo sapiens with 2 samples.

Results

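The broad peaks of a V5 ChIP for TET1 were the regions of 5 kb or more in the authors' peak list. They were chosen by width alone (end minus start of 5000 bp or more) on chromosomes 1 to 22 and X of hg19. There were 1478 of them among 46117 peaks on those chromosomes (3.20%, 95% Wilson interval 3.05% to 3.37%), out of 46208 in the whole list. The remaining 44639 peaks, all under 5000 bp, served for comparison and are called narrow. The cells were cardiac progenitors at day 7 of differentiation from H1, an established human embryonic stem cell line, here with a V5 tag on the endogenous TET1. Per the labels, WNT signalling was first activated with CHIR99021 (6 µM, until day 2) and later blocked with IWP2 (5 µM, between day 3 and day 5). There was 1 V5 ChIP library and 1 input library of the same cells, and no V5 ChIP of untagged cells is among the samples. Both libraries carry a wild-type genotype entry, although the series text describes the tagged line, and the number of clones behind it is not stated. No measurement of a cell type marker is among the data used here. With 1 library there is no replicate spread, so no p-value is given and every interval covers counting error only.

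TET1 oxidises the methyl group of methylated cytosine, the first step of active DNA demethylation. Its CXXC domain binds DNA rich in unmethylated CpG dinucleotides, and in embryonic stem cells the enzyme is known for occupying CpG islands, among them the long islands at genes of developmental regulators. A peak caller joins neighbouring enriched windows, so a wide peak can be 1 long stretch of enrichment or several close sites that were not separated. The genes and the DNA sequence at these peaks were not analysed here, because no annotation or genome of hg19 was used, and the peaks are therefore described by position.

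The 50 widest peaks ran from 13072 to 41469 bp. They lay on 17 chromosomes, with 7 each on chromosomes 16 and 17, 6 each on 1 and 19, and 5 on 9. Chromosomes 2, 4, 6, 13, 15 and X had none of them. Of the 50, 33 had a score of 3100 or more, the level at which most of the highest scores are tied and which is called the ceiling below. The score is the authors' value for each peak, without a stated unit. Width and score come from the same peak call, so both only describe the peaks.

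**Figure D1:**
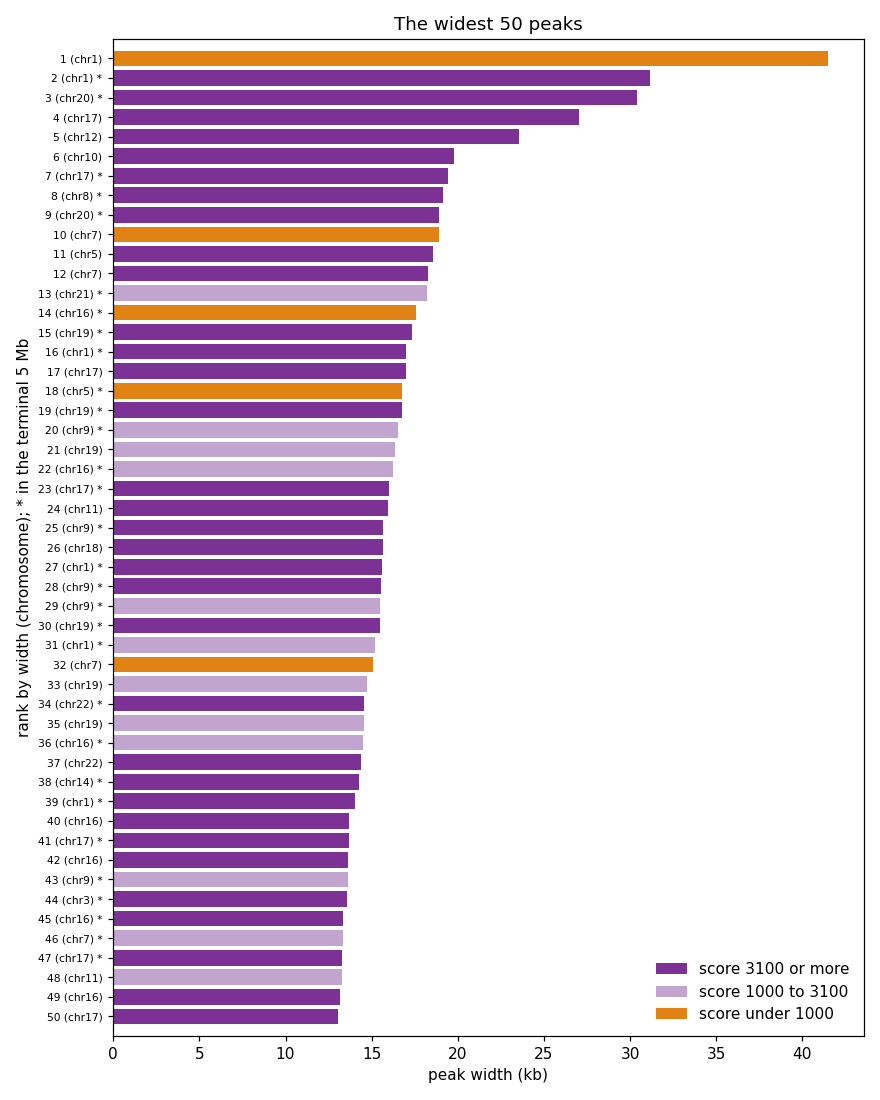
Width in kb (horizontal axis, from 0) of each of the 50 widest peaks, 1 bar a peak, labelled by rank and chromosome, with a star for peaks in the terminal 5 Mb and coloured by score class. Of the bars, 33 are at the ceiling and 30 carry a star, and the widest (41469 bp) is 1 of 5 that score under 1000.

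The widest peak, chr1:228743739-228785207 (41469 bp), scored 606.88, while the 8 next in width all scored 3100. It also stood rather alone, with 49399 bp to the nearest other peak and 5 other peaks within 100 kb. The next, chr1:850662-881842 (31181 bp, score 3100), lay near the p end of the same chromosome, with a neighbour at 341 bp and 22 other peaks within 100 kb. The peak at chr20:60928253-60958636 (30384 bp, 3100) had a neighbour at 320 bp and 33 peaks around it. Both of these were in the terminal 5 Mb, as were 30 of the 50 (60%, 46.2% to 72.4%).

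Other wide peaks were internal. The peak at chr17:7735742-7762758 (27017 bp, 3100) had its nearest neighbour at 7884 bp, and the one at chr12:122229461-122253030 (23570 bp, 3100) at 907 bp. The peak at chr10:8084683-8104464 (19782 bp, 3100) had only 4 other peaks within 100 kb, the fewest of the 50. On chromosome 5, chr5:139025299-139043855 (18557 bp, 3100) had 17, and on chromosome 7, chr7:5454001-5472281 (18281 bp, 3100) had 18. These 5 peaks had scores tied at the ceiling, which does not rank them, and fewer other peaks around them than the median of the 50, which was 25. Another internal peak of the 20 widest, on chromosome 7 at chr7:102243853-102262754, had 29 and a score of 724.14.

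Terminal peaks among the 20 widest were mostly crowded. They included chr17:79358696-79378128 (19433 bp, 3100, 33 other peaks within 100 kb), chr8:145010407-145029552 (19146 bp, 3100, 24), chr20:61046683-61065587 (18905 bp, 3100, 31) and chr21:46842839-46861041 (18203 bp, 1719.70, 40). On chromosome 19, chr19:1229788-1247131 (17344 bp, 3100) and chr19:1247135-1263908 (16774 bp, 3100) were separated by 3 bp. A single peak over both would have ranked second in width. On chromosome 1, chr1:1279702-1296679 (16978 bp, 3100) had a neighbour at 22 bp, and chr9:140187904-140204444 (16541 bp, 1558.49) had one at 496 bp. The remaining internal peak of the 20 without a low score, chr17:40819681-40836647 (16967 bp, 3100), had 12 other peaks within 100 kb.

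Besides the widest of all, 4 of the 50 scored under 1000. The lowest was chr16:1137787-1155370 (17584 bp, 356.48), which had 45 other peaks within 100 kb, the most of the 50. A pair on chromosome 7 followed, chr7:102144990-102160075 (15086 bp, 643.90) and chr7:102243853-102262754 (18902 bp, 724.14), with neighbours at 141 and 12 bp. The last was chr5:1096604-1113388 (16785 bp, 869.98). Whether these positions hold repeated sequence was not analysed here.

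Across the 50, a close neighbour was the rule. The median gap, measured from edge to edge, was 501.5 bp, 48 had another peak within 10 kb and 11 within 100 bp. The exceptions were the widest peak and chr3:193847079-193860642 (13564 bp, 3100), whose nearest neighbour was 11341 bp away. Peaks chr9:140110783-140126449 (15667 bp, 3100) and chr9:140126536-140140145 (13610 bp, 2639.35) were 86 bp apart and thus each other's neighbours, like the pair on chromosome 19.

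Most broad peaks were much narrower than these. The median width was 6212 bp (quartiles 5491 and 7757 bp). Peaks of 5 to 6 kb numbered 641 (43.4% of the broad peaks), those of 6 to 7.5 kb 427, of 7.5 to 10 kb 276, of 10 to 15 kb 102, of 15 to 20 kb 27 and of 20 kb or more 5. Broad peaks covered 10.5 Mb, or 11.7% of all bases under peaks on these chromosomes. The threshold cuts a continuous range. The narrowest broad peaks were chr16:8959586-8964585 (5000 bp, 3100), chr14:21733372-21738372 (5001 bp, 279.20) and chr1:245316126-245321128 (5003 bp, 3100). Just outside lay chr19:45406570-45411567 (4998 bp, 1084.26), chr16:89667935-89672931 (4997 bp, 721.44) and chr2:127841389-127846384 (4996 bp, 1714.09).

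**Figure D2:**
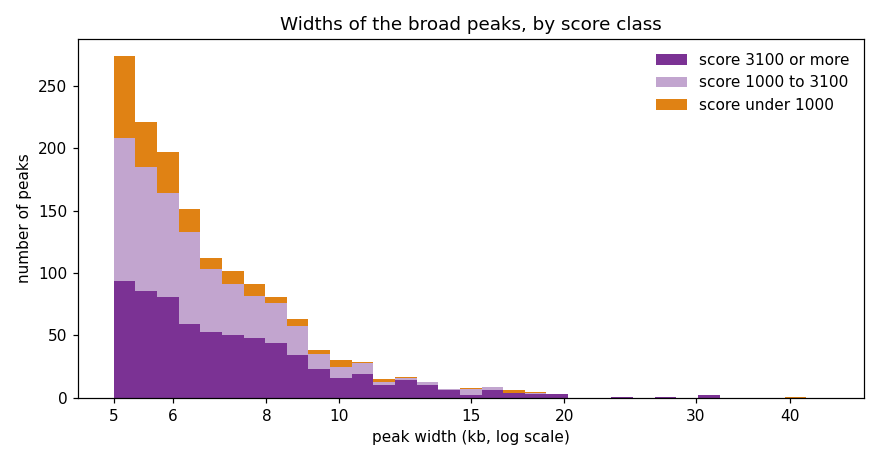
Number of broad peaks (vertical axis) by width in kb (horizontal axis, log scale), stacked by score class. Most peaks lie near the threshold (641 of 5 to 6 kb), and peaks with scores under 1000 (209 in all) occur from 5 kb up to the widest peak.

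Scores of broad peaks were mostly high. Their median was 2777 (quartiles 1490 and 3100), beside 163 (80.9 and 571) for narrow peaks. At the ceiling stood 670 (45.3%), beside 3.35% of narrow peaks, and 209 (14.1%) scored under 1000. Read the other way, 30.96% of the 2164 peaks at the ceiling were broad, 9.33% of those from 1000 to 3100, 2.02% from 300 to 1000, 0.171% from 100 to 300 and 0.0461% from 50 to 100. Most peaks at the ceiling, 1494, were narrow.

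A few broad peaks had scores near the lower limit of the list, and several of them lay together. Only 7 scored under 100. The lowest was chr19:50598669-50606566 (7898 bp, 50.09), with chr19:50617529-50623341 (5813 bp, 68.80) and chr19:50634456-50639671 (5216 bp, 117.03) close by. On chromosome 2, chr2:91758743-91764512 (5770 bp, 58.91), chr2:91773508-91779161 (5654 bp, 157.57) and chr2:91813462-91819629 (6168 bp, 59.00) fell within a short stretch. On chromosome 8 lay chr8:86726416-86733268 (6853 bp, 74.55) and chr8:86813456-86819992 (6537 bp, 158.97). Between these were broad peaks with scores of 350.36, 386.49 and 447.79. Thus 8 of the 15 broad peaks with the lowest scores came from 3 places. The remaining ones under 100 were chr1:2616767-2624132 (7366 bp, 62.83) and chr17:21902090-21907790 (5701 bp, 74.71). These peaks were picked after their values had been seen.

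Chromosomes differed in how many of their peaks were broad. Chromosome 19 had 187 broad peaks, 5.93% of its peaks (5.16% to 6.81%). Chromosome 17 had 162 (5.10%, 4.39% to 5.92%), chromosome 16 had 108 (4.39%, 3.65% to 5.27%) and chromosome 22 had 70 (4.08%, 3.25% to 5.13%). These were the 4 autosomes whose interval lay above the share over all 23 chromosomes, and 9 autosomes had an interval below it. The lowest autosomal shares were 1.28% on chromosome 18 (9 peaks, 0.676% to 2.42%) and 1.61% on chromosome 6 (31 peaks, 1.13% to 2.27%). Chromosomes 19, 17, 1 and 16 held the most broad peaks, 612 or 41.4% of them, and 28.4% of the narrow ones. Picking them by that number favours the broad share.

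**Figure D3:**
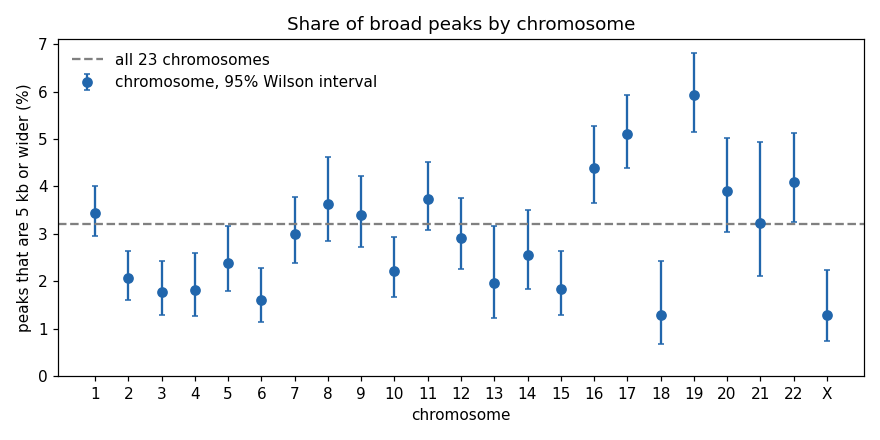
Share of each chromosome's peaks that are 5 kb or wider (vertical axis, percent, points with 95% Wilson intervals) for chromosomes 1 to 22 and X. The intervals of 16, 17, 19 and 22 lie above the dashed line for all chromosomes (3.20%), and 18 and X have the lowest shares (1.28% and 1.29%).

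By length the spread was wider. Chromosome 19 had 3.40 broad peaks per Mb (exact Poisson interval 2.93 to 3.92), chromosome 17 had 2.18 (1.86 to 2.55), chromosome 22 had 2.04 (1.59 to 2.57) and chromosome 16 had 1.54 (1.26 to 1.86), against an autosome median of 0.509. The intervals of 17 and 22 overlap, as do those of 22 and 16, so the order within these pairs is not resolved. All of these intervals treat peaks as independent, which neighbours are not, so the remaining order is a description too. The autosome with the lowest rate was 18, at 0.153 (0.0697 to 0.290), and X had 0.111 (0.0575 to 0.194). Peaks of any width were unevenly spread too. Chromosome 19 had 3155 peaks over 55.0 Mb, while 18 had 702 over 59.0 Mb and X had 930 over 107.9 Mb. The rates of broad peaks therefore also carry the density of all peaks, which the shares above do not.

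The widest peak of a chromosome ranged from 8343 bp to 41469 bp. The smallest of these were chr13:100630024-100638366 (8343 bp, 3100), chr6:1604090-1612979 (8890 bp, 2579.61) and chrX:39948940-39959058 (10119 bp, 3100). Next came chr4:1764021-1775749 (11729 bp, 2448.09), chr15:70383309-70395397 (12089 bp, 3100) and chr2:219259297-219272245 (12949 bp, 3100). On the other chromosomes the widest peak was among the 50 widest. Those not yet given are chr11:118785998-118801969 (15972 bp, 3100), chr18:46464915-46480550 (15636 bp, 3100), chr22:50736873-50751449 (14577 bp, 3100) and chr14:103983763-103998040 (14278 bp, 3100).

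Chromosome X held 12 broad peaks, 1.29% of its peaks (0.740% to 2.24%), and some of them were grouped. A group of 3 at the ceiling lay in chrX:39948940-39959058 (10119 bp), chrX:39961126-39970454 (9329 bp) and chrX:40010253-40016736 (6484 bp). In the terminal q end lay 5, among them chrX:153595874-153604089 (8216 bp, 3100), chrX:153614404-153619864 (5461 bp, 3014.77) and chrX:153568932-153574252 (5321 bp, 2412.79), which stood close together. Outside these groups lay chrX:9430477-9436216 (5740 bp, 3100), chrX:114976915-114982794 (5880 bp, 783.90) and chrX:129113240-129119191 (5952 bp, 3100). The first of these had no other peak within 100 kb. Near the p end, chrX:328673-336293 (7621 bp, 2733.99) lay in the pseudoautosomal region, the stretch of DNA that X and Y share. Chromosome Y, which the rule leaves out, had 1 peak of 5 kb or more among 90, chrY:278796-286123 (7328 bp, 2981.19), in the same region.

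Chromosome 18 also had few broad peaks, 9, of which 8 stood at the ceiling, beside 7 of the 12 on X. The exception on 18 was chr18:46499416-46504469 (5054 bp, 2502.22). After the widest came chr18:19743736-19755683 (11948 bp), with 5 other peaks within 100 kb, and chr18:3447160-3454516 (7357 bp), with 2. The peaks chr18:24126291-24131344 (5054 bp) and chr18:25753979-25758993 (5015 bp) had 0 and 1. The peaks of 18 and X were listed after their low shares had been seen.

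Broad peaks lay near chromosome ends more often than narrow ones. The terminal 5 Mb, counted at 18 p and 23 q ends (41 in all), contained 576 of the 1478 broad peaks, 38.97% (36.5% to 41.5%), and 9440 of the narrow peaks, 21.1% (20.8% to 21.5%). Compared within chromosomes, the odds of lying there were 2.29 times as high for broad peaks (Mantel-Haenszel odds ratio, 2.04 to 2.56). The share was higher for broad peaks on 21 of 23 chromosomes and lower on 2.

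The terminal share was higher in wider classes. Of peaks of 5 to 6 kb, 33.7% were terminal (30.1% to 37.4%), of 6 to 7.5 kb 39.6% (35.1% to 44.3%), of 7.5 to 10 kb 43.8% (38.1% to 49.7%), of 10 to 15 kb 49.02% (39.5% to 58.6%) and of 15 to 20 kb 66.7% (47.8% to 81.4%). Neighbouring classes have overlapping intervals, while those of the narrowest and the widest of these do not overlap. Of the 5 peaks of 20 kb or more, 2 were terminal.

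**Figure D4:**
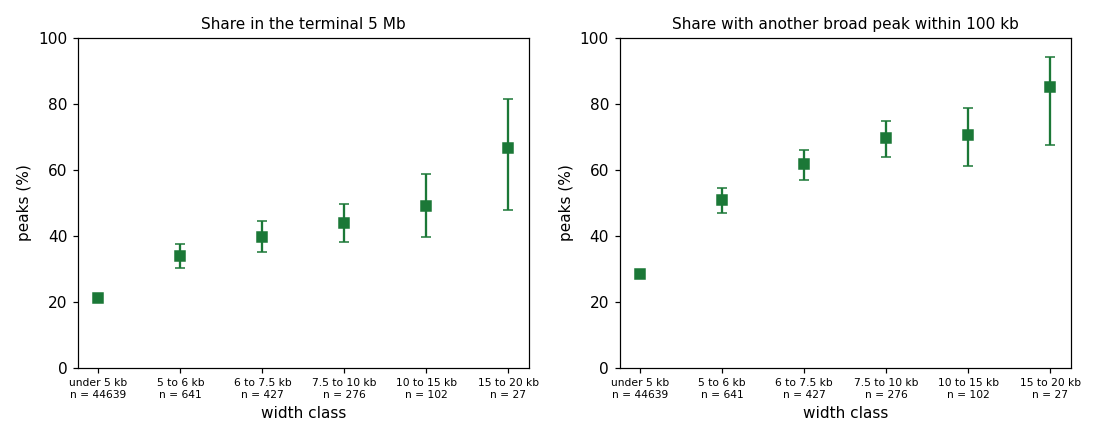
Share of peaks in the terminal 5 Mb (left) and with another broad peak within 100 kb (right), in percent with 95% Wilson intervals, by width class (horizontal axis, with the number of peaks). Both are lowest under 5 kb (21.1% and 28.3%) and highest at 15 to 20 kb (66.7% and 85.2%), and the 5 peaks of 20 kb or more are not drawn.

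Score and local crowding differed between the groups and were looked at beside this result. At the ceiling 32.8% of broad (29.4% to 36.5%) and 14.3% of narrow peaks (12.6% to 16.2%) were terminal. From 1000 to 3100 the shares were 47.1% (43.1% to 51.1%) and 15.5% (14.5% to 16.4%), and from 300 to 1000 they were 40.2% (33.3% to 47.5%) and 19.1% (18.3% to 19.9%). In these 3 classes the intervals of broad and narrow peaks do not overlap. In the other 2 classes, with few broad peaks, the share was lower for broad peaks: 4.35% of 23 from 100 to 300 (0.772% to 20.99%) beside 23.1% of narrow peaks, and 14.3% of 7 from 50 to 100 (2.57% to 51.3%) beside 23.4%. With score class added to the strata the odds ratio was 3.20 (2.81 to 3.64).

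Crowding brought the groups closer. Where 40 or more other peaks lay within 500 kb, 48.3% of broad (45.4% to 51.2%) and 36.8% of narrow peaks (36.1% to 37.5%) were terminal. Where 20 to 39 did, the shares were 9.89% (6.35% to 15.1%) and 10.98% (10.4% to 11.6%), where 10 to 19 did, 8.91% (4.76% to 16.1%) and 7.07% (6.49% to 7.69%), and where fewer did, 4.69% (1.61% to 12.9%) and 2.96% (2.58% to 3.38%). A difference larger than the counting intervals was thus seen only in the most crowded of these 4 classes, which held 1131 of the broad peaks. With this number added to the strata the odds ratio was 1.63 (1.45 to 1.85).

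The ends were unlike each other. The p end of chromosome 19 held 71 broad peaks, 11.1% of its peaks (8.93% to 13.8%), against 4.56% in the interior of that chromosome. On chromosome 1 the p end held 53, 13.2% (10.2% to 16.9%), against 2.51% in the interior, while its q end held 1 of 69 peaks. The q end of 9 held 43 (7.90%, 5.92% to 10.5%), the p end of 16 held 42 (8.05%, 6.01% to 10.7%) and the q end of 17 held 40 (7.68%, 5.69% to 10.3%). These 5 ends together held 249, or 43.2% of the terminal broad peaks, and 25.2% of the terminal narrow ones. They were picked for holding the most broad peaks, which favours the broad share. On chromosome 21 all 20 broad peaks lay in the q end, which held 412 of its 620 peaks. No broad peak lay in 6 ends, the p ends of 2, 3, 8 and 9 and the q ends of 4 and 11. The share of broad peaks was higher in 28 of the 41 ends than in the interior of the same chromosome.

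At a scale of 1 Mb the fullest windows were mostly near chromosome ends. The window chr19:1000001-2000000 held 25 broad peaks, 15.7% of its peaks and 210 kb of sequence. It was followed by chr17:79000001-80000000 with 20 of 143 and chr19:1-1000000 with 20 of 144. Then came chr1:1000001-2000000 with 19 of 111, chr9:139000001-140000000 with 19 of 153 and chr11:1-1000000 with 18 of 114. Farther from an end, chr22:39000001-40000000 held 12 of 91 and chr11:65000001-66000000 held 11 of 81. Of 2720 windows with a peak, 564 had a broad peak and 307 had exactly 1, and the fullest 89 held 50% of all broad peaks. Windows were ranked by their number of broad peaks, which favours the broad share. The share of narrow peaks in the same 89 is not given, so this concentration is not shown to be particular to broad peaks.

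Next to a broad peak, another peak was usually close. The median gap to the nearest other peak was 1205 bp for broad peaks (quartiles 320.2 and 4050 bp) and 5980 bp for narrow peaks (1449 and 23907 bp). It was shorter for broad peaks on 23 of 23 chromosomes, from 366.5 against 27902 bp on X to 5054 against 7846 bp on chromosome 15. Within 1 kb a neighbour was present for 45.6% of broad peaks (43.1% to 48.1%) and 20.3% of narrow ones (19.9% to 20.6%). Within 10 kb the shares were 88.2% (86.4% to 89.7%) and 59.8% (59.3% to 60.2%), with an odds ratio within chromosomes of 4.51 (3.83 to 5.32).

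**Figure D5:**
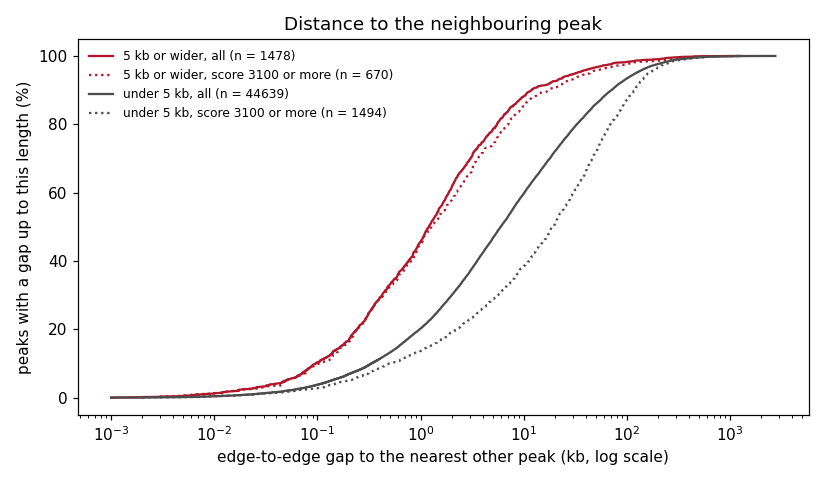
Cumulative share of peaks (vertical axis, percent) whose nearest other peak lies within a given edge-to-edge gap (horizontal axis, kb, log scale), for broad and narrow peaks, all (solid) and at the ceiling (dotted). The curves of broad peaks lie to the left (median 1205 bp against 5980 bp), and narrow peaks at the ceiling have the longest gaps (median 18963 bp).

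How the distance is measured matters here. Between midpoints, a distance that also takes in part of the width of the peak and of its neighbour, the medians were 6390 and 7866 bp and the odds ratio for a neighbour within 10 kb was 2.49 (2.19 to 2.83). Edge to edge, the median was shorter for broad peaks in each class of place, crowding and score except for the 7 peaks under a score of 100 (9488 bp, against 4817 bp for narrow peaks). In the terminal regions the medians were 712 and 2189 bp and in the interior 1761 and 8208 bp. At the ceiling they were 1280 bp for broad and 18963 bp for narrow peaks. The odds ratio was 8.17 (6.85 to 9.75) with score class in the strata and 3.20 (2.67 to 3.84) with the number of other peaks within 500 kb. That number counts the neighbour itself, so it is not independent of the outcome. Of the 1478 broad peaks, 154 had a neighbour at 100 bp or less. Narrow peaks were not counted at this distance, so the number is a description only.

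The neighbours themselves were mostly narrow. Next to broad peaks their median width was 1854 bp (quartiles 1198 and 3115 bp) and their median score 186, beside 1507 bp (1088 and 2327 bp) and 165 next to narrow peaks. The nearest neighbour was itself broad for 10.96% of broad peaks (9.47% to 12.7%) and 3.19% of narrow peaks (3.03% to 3.36%), though this share was higher for broad peaks on only 15 of 23 chromosomes. Within 100 kb a broad peak had a median of 17 other peaks (quartiles 10 and 26) and a narrow one 8 (3 and 16).

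Broad peaks also lay near each other. Another broad peak was present within 100 kb of 879 of them, 59.5% (56.9% to 61.9%), and of 28.3% of narrow peaks (27.8% to 28.7%). The odds ratio within chromosomes was 3.19 (2.85 to 3.56), and the share was higher for broad peaks on 22 of 23 chromosomes. With the number of other peaks within 500 kb in the strata the odds ratio was 2.20 (1.95 to 2.49), though that number also counts the broad peaks nearby. Within 10 kb the shares were 26.7% (24.5% to 28.97%) and 6.98% (6.75% to 7.23%).

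Unbroken strings of broad peaks, with gaps of at most 10 kb and no narrow peak between them, took in 249 broad peaks (16.8%). There were 100 pairs, 11 strings of 3 and 4 strings of 4. The longest by span, a string of 4 at chr19:1229788-1278634, spanned 48847 bp with gaps of 3 to 503 bp, so that peaks covered 98.5% of it. Another string of 4, chr7:102130866-102167235 (36370 bp), had scores of only 228 to 1043. The other strings of 4, chr19:908312-935906 (27595 bp) and chr11:553075-579568 (26494 bp), had scores from 1861 and 2115 up to 3100. The second longest by span was a string of 3 at chr16:2171512-2211036 (39525 bp), with gaps of 390 and 9491 bp. A string of 3 at chr13:100607387-100638366 was looser, with gaps of 4903 and 6833 bp and 62.1% of its 30980 bp covered. It includes the widest peak of chromosome 13.

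The opposite case was rare. No other peak lay within 100 kb of 26 broad peaks, 1.76% (1.20% to 2.57%), while this held for 2934 narrow peaks, 6.57% (6.35% to 6.81%). Of the 26, 16 stood at the ceiling (61.5%, 42.5% to 77.6%). That interval includes the share over all broad peaks, 45.3%. Among the narrow peaks without such a neighbour 6.61% stood there. The 26 were of moderate width, with a median of 5720.5 bp and none above 8468 bp, and 1 was terminal. The most isolated was chr4:30718077-30726544 (8468 bp, 3100), with 1270957 bp to the next peak. It was the only broad peak with a gap over 1 Mb, which 30 narrow peaks had. Next came chr5:107004299-107009739 (5441 bp, 3100) at 538416 bp, chr17:21902090-21907790 (5701 bp, 74.71) at 446805 bp and chr4:20252328-20257397 (5070 bp, 3100) at 444100 bp. The peak on chromosome 17 is 1 of the 7 with scores under 100 named above, and it had the lowest score among the isolated peaks given here. Chromosome 13 had a pair, chr13:110433954-110440489 (6536 bp, 3100) at 349585 bp and chr13:58203250-58209549 (6300 bp, 3100) at 341898 bp. These peaks were listed by their gap, so their isolation is a description.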

How the data were processed

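The data were 1 V5 ChIP library and 1 input library of H1-derived cardiac progenitors. The reads were aligned using BWA 0.7.17 to hg19, per the submitters' processing notes. Peak names in the deposited list are those MACS writes, and no source used here states its version or settings. The score the authors deposited for each peak starts at 50, has no stated unit and is used only within this list. Read depth was unknown.

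Widths, gaps and shares were computed in Python 3.11.15 (numpy 2.4.6, pandas 2.3.3, scipy 1.17.1), with figures drawn by matplotlib 3.10.9. Positions count from 1. Peaks were placed in ends by midpoint: the last 5 Mb before the final peak of each chromosome, and the opening 5 Mb on chromosomes that have a peak in their opening 1 Mb. Rates per Mb exclude gaps between peaks of over 1 Mb. Shares carry 95% Wilson intervals and odds ratios Robins-Breslow-Greenland intervals, with chromosomes as strata. Rates carry exact Poisson intervals. All of these treat peaks as independent, which neighbours are not. The functions for the odds ratio and for the gaps were tested on simulated data, and the others were not.

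Members, lists and the naming rule were chosen with earlier results of these data known. The rule takes the 20 widest peaks, the 5 lowest scores among the 50 widest, the widest peak of each chromosome, the longest strings and the 3 peaks on either side of the threshold. Other peaks were chosen after their values were seen. The reference tables given were of GRCh38.p14, another build, and were not used. Genes at the 50 widest peaks, overlap with transcription starts, gene lists, CpG content and sequences are therefore not reported.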

Additional observations from a re-analysis of the deposited data

How the results depend on the processing

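Of 65 alternative values for 11 results, 14 stayed within the interval of the value (numbers and medians: within 1.5 times) and 51 moved. A reversal of direction was looked for only in the 3 odds ratios, and none of them reversed. A threshold of 4000 bp gave 2895 broad peaks (6.28%), terminal shares of 33.7% for broad peaks with a ratio (odds ratio throughout) of 1.83, a neighbour ratio of 3.04, and another broad peak within 100 kb for 66.7% of broad and 40.1% of narrow peaks (ratio 2.64). From 10000 bp there were 134 (0.291%), terminal shares of 52.2% and 21.6% (3.60), a median gap of 643 bp, a neighbour ratio of 11.5, and 32.1% and 5.16% near another broad peak (5.78). In the upper 50% by score 6.34% were broad, 18.8% of narrow peaks were terminal (2.66), gaps were 3569 and 17688 bp, and 27.04% of narrow peaks had a broad peak near. Joining peaks up to 1 kb apart gave 2603 broad regions (6.41%), 18.3% of narrow ones terminal, gaps of 3057 and 9468.5 bp, and 70.03% and 33.9% near another broad one (3.90). Terminal shares were 24.7% and 10.8% for 2 Mb (2.61) and 49.1% and 31.3% for 10 Mb (1.96). Midpoints gave a broad median of 6390 bp and a neighbour ratio of 2.49. Another broad peak lay within 10 kb of 26.7% and 6.98% (4.12), and within 1 Mb of 86.3% and 64.4%. Strata with score class gave ratios of 3.20 (terminal), 8.17 (neighbour) and 4.401 (another broad peak), and strata with local peak number 1.63, 3.20 and 2.20. These strata were chosen after seeing the data, and the local peak number counts the near neighbours themselves. Thresholds, lengths and joining move shares by construction, and other causes were not tested. Leaving out each chromosome in turn (leave-one-out) gave terminal shares of 36.9% to 40.04% (broad) and 19.97% to 22.4% (narrow), terminal ratios of 2.13 to 2.44, gaps of 1178 to 1278.5 bp (broad) and 5774 to 6511 bp (narrow), neighbour ratios of 4.31 to 4.69, and another broad peak for 57.01% to 60.5% (broad) and 26.2% to 29.2% (narrow), with ratios of 3.03 to 3.32. The alternatives on transcription starts and CpG content were not run, since they need hg19 annotation or sequence. No paired analysis was possible because there is 1 library in each group. Read depth, which is unknown, limits which weak parts of a peak reach the threshold.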
